A study of Homo sapiens with 12 samples.

Results

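Mucins are the large O-glycosylated proteins of mucus and of the epithelial surface, and 10 of them were followed here by their mRNA in cells evolved under hydroxychloroquine (HCQ). The members were the rows of the count matrix with the symbols MUC1, MUC2, MUC3A, MUC4, MUC5AC, MUC5B, MUC12, MUC13, MUC16 and MUC17, and all 10 were found among 28278 gene symbols. Of these, 3 are secreted gel-forming mucins (MUC2, MUC5AC and MUC5B) and 7 are membrane-bound. Bulk mRNA was read from 12 pools of cells under 2 cell line labels, OVCAR3, an ovarian cancer line, and CCL218, a colorectal cancer line. HCQ-evolved cells had gone through 15 pulse-chases of HCQ, each pulse lasting 48 h, had then grown for 7 days without drug after the last pulse, and were collected at passage 15. Control cells of the same line were grown without the drug and were collected at passage 19, so drug exposure and passage cannot be told apart. Each line and condition was held on a 96-well plate, whose wells were combined by plate position into a left (L), a middle (M) and a right (R) pool. A group is therefore 3 pools of the same plate, and the p-values below measure the spread between pools of that plate and not between repeated evolutions.

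Gel-forming mucins are packed into granules, released from the cell and cross-linked into the mucus gel, MUC2 as the main mucin of the intestine, MUC5AC of stomach and airway and MUC5B of the airway. Membrane-bound mucins stay anchored in the apical membrane as part of the glycocalyx, where they form a barrier, take part in signalling through their cytoplasmic tails and can be shed. Colorectal and ovarian carcinomas are known to make several of both kinds, and the shed part of MUC16 carries the ovarian tumor antigen CA125.

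Several members lie side by side in the genome. In GENCODE 44 on hg38, MUC2 (chr11:1074875-1110511), MUC5AC (chr11:1157953-1201138) and MUC5B (chr11:1223066-1262172) follow each other on the plus strand at 11p15. MUC3A (chr7:100949534-100968347), MUC12 (chr7:100969565-101018939) and MUC17 (chr7:101020072-101058859) follow each other on the plus strand at 7q22. The others stand apart from these clusters and lie on the minus strand, MUC1 at chr1:155185824-155192916, MUC4 at chr3:195746765-195811973, MUC13 at chr3:124905442-124953819 and MUC16 at chr19:8848844-9010390. Merged exons ranged from 2.4 kb for MUC1 and 3.5 kb for MUC13 to 44.16 kb for MUC16, so levels are compared between genes only as RPKM, reads scaled by merged exon length and library size, and are otherwise given as TMM-normalized CPM, counts scaled by library size. Most mucins hold long tandem repeats and some have close paralogs, and where reads from such stretches could be assigned was not tested.

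The promoters of MUC1 and MUC13, the members called higher in HCQ-evolved CCL218, and of MUC2, called lower in HCQ-evolved OVCAR3, are printed to show how differently they are built. Each run is the 250 bases before the RefSeq start on the gene's own strand (GRCh38.p14), at chr1:155192916-155193165, minus strand, for MUC1, chr3:124934752-124935001, minus strand, for MUC13, and chr11:1074624-1074873, plus strand, for MUC2. Capitals mark matches on either strand. The letters marked were TATAAA for the TATA box. For the GC box they were GGGCGG. The core bound by CDX factors was searched as TTTATG. The core bound by GATA factors was searched as AGATAA.
MUC1: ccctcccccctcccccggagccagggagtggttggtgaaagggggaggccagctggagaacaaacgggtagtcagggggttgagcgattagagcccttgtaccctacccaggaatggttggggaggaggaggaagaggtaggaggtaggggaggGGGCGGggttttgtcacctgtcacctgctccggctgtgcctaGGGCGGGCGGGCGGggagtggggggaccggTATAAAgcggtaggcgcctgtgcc
MUC13: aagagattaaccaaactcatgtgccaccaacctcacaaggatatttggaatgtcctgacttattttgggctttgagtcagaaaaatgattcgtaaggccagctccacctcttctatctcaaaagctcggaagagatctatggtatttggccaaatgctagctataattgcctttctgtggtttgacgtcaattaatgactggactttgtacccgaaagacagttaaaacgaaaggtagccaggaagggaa
MUC2: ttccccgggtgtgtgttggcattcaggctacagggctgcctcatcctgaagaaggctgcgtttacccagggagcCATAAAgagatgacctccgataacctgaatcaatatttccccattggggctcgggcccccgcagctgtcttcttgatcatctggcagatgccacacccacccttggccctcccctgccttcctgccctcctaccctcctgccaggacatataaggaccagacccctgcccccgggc
The MUC1 run was 66.0% G and C, with a TATA box beginning at base -24 and 4 GC box matches at -96, -54, -50 and -46, the last 3 of which each overlap the next. Counted from a second RefSeq start of MUC1, not printed, the TATA box was at -30 and the GC boxes at -102, -60, -56 and -52. The MUC13 run was 41.6% G and C and held none of these letters. It lies inside the GENCODE gene given above, which begins at 124953819 on the minus strand, so it precedes the RefSeq start only. The MUC2 run was 59.6% G and C and held the CDX core on the other strand at -176 and none of the other letters marked here. Of 35116 RefSeq promoters searched over the same 250 bases, 10.7% held the TATA box, 42.6% the GC box, 9.6% the CDX core and 9.2% the GATA core. The E box (CANNTG) was searched too and is not marked. It matched 3 times each in the MUC1 and MUC2 runs and 2 times in the MUC13 run, and 61.8% of these promoters held it. The hypoxia core (ACGTG), also searched, was absent from the printed runs and held by 18.5% of promoters. The same table held MUC3A, MUC4, MUC12, MUC16 and MUC17 as well. Such matches are letters in a window and not sites of binding, and windows without a match say nothing of a factor.

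The libraries held 31147822 to 59965861 counts and 16569 to 18992 genes with a count, and 3 counts, taken as the floor of detection, were worth 0.0501 to 0.0942 CPM. Pools differed along transcript length, with Spearman's rho between a pool's deviation and gene length from -0.38 to 0.457, the highest in the HCQ-evolved OVCAR3 R pool. Markers of both tissues were found under both cell line labels, and the summed ovarian list was not higher in OVCAR3. Of 8 ovarian serous markers, 4 were at or above 1 CPM in all pools of control OVCAR3 and of control CCL218, SOX17 was at 0 in every pool, WT1 was at 0.296 ± 0.167 CPM in control OVCAR3 (SD, n = 3 pools throughout) and at 0.267 ± 0.108 CPM in control CCL218, and the summed level of the list was 74.4 to 76.8 CPM in control OVCAR3 and 126 to 151 CPM in control CCL218. Of 10 colorectal epithelial markers, 7 were at or above 1 CPM in all pools of both control groups, with summed levels of 975 to 1192 CPM in OVCAR3 and 1231 to 1686 CPM in CCL218. Of the 8 colorectal markers tested between the control lines, 7 were above 0 (higher in CCL218) and CEACAM5 was called (log2 fold change 1.48, adjusted p = 0.0144, edgeR), with CDX2 (1.09), GPA33 (0.62) and LGALS4 (0.52) not called and their pools apart. VIL1, which encodes the microvillus protein villin, was the 1 below 0 (-0.37), at 241 ± 46.6 CPM in control OVCAR3 and 187 ± 12.9 CPM in control CCL218. Of the 4 ovarian markers tested, MSLN was called higher in CCL218, at 14.3 ± 3.81 CPM in control OVCAR3 and 63.6 ± 27.1 CPM in control CCL218. MECOM (0.47) was above 0 and not called. FOLR1 (-0.95, pools apart) and PAX8 (-0.53, pools overlapping) were higher in OVCAR3 and not called. Names of lines below are therefore the labels of the libraries.

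Counted per length, MUC13 was the most abundant transcript of the 10 members in all 4 groups, and MUC1 the second. MUC13 reached 20.2 ± 1.43 RPKM in control OVCAR3, 16.4 ± 9.12 in HCQ-evolved OVCAR3, 19.2 ± 0.617 in control CCL218 and 49.9 ± 5.84 in HCQ-evolved CCL218. MUC1 followed at 7.45 ± 0.815, 10.1 ± 2.35, 4.56 ± 0.689 and 9.32 ± 0.849 RPKM in the same groups. MUC20, a mucin outside the 10 members, was at 9.45 ± 1.75, 8.4 ± 0.197, 7.78 ± 2.15 and 9.3 ± 0.401 RPKM there. The ranges of MUC13 and MUC1 met only in HCQ-evolved OVCAR3, where the R pool was low in MUC13 and high in MUC1.
The places below MUC13 and MUC1 were taken by different members in each group. In control OVCAR3 the third was MUC5AC (3.64 ± 0.657 RPKM), with MUC5B (1.07 ± 0.128), MUC3A (0.978 ± 0.257), MUC2 (0.693 ± 0.225) and MUC16 (0.508 ± 0.2) each overlapping its neighbour in the order. In control CCL218, MUC2 (4.09 ± 2.01 RPKM), MUC5AC (3.22 ± 1.62) and MUC3A (2.62 ± 1.11) overlapped each other in that order, and MUC1 overlapped MUC2. In HCQ-evolved CCL218 the order was clearer, MUC3A at 2.17 ± 0.0766 RPKM, MUC2 at 1.39 ± 0.299, MUC5AC at 0.648 ± 0.0897 and MUC5B at 0.463 ± 0.0916, the pools of the first 4 mucins and MUC5AC not meeting their neighbours in the order. In HCQ-evolved OVCAR3 the third place went to MUC16 (0.699 ± 0.376 RPKM) and MUC5AC (0.697 ± 0.296), whose ranges met. MUC12, MUC17 and MUC4 closed the order in every group but HCQ-evolved CCL218, where MUC17 (0.236 ± 0.141 RPKM) stood above MUC16 (0.108 ± 0.0262) with meeting ranges, and in control CCL218 MUC17 (0.122 ± 0.0519 RPKM) stood above MUC12.

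**Figure D1:**
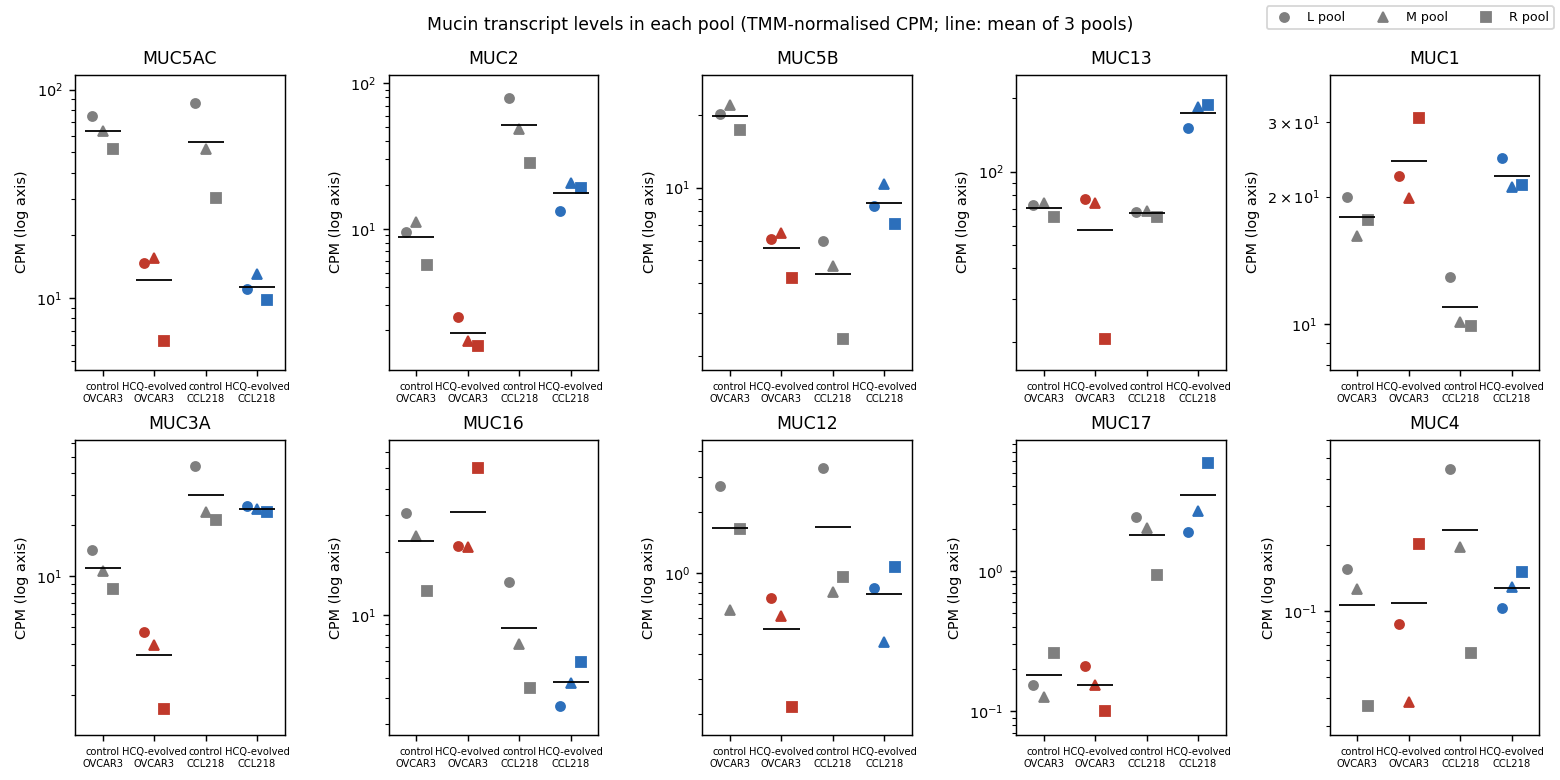
Level of each mucin in every pool. The vertical axis is TMM-normalized CPM on a log axis that differs between panels, the horizontal axis the 4 groups, symbols the plate positions (circle L, triangle M, square R) and lines the means of 3 pools. MUC5AC lies at 52.0 to 75.0 CPM in control OVCAR3 and 6.23 to 15.6 CPM in HCQ-evolved OVCAR3, and MUC13 at 64.9 to 69.0 CPM in control CCL218 and 151 to 187 CPM in HCQ-evolved CCL218.

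In OVCAR3, the secreted mucins were lower after HCQ evolution. All 3 gel-forming members, MUC5AC, MUC2 and MUC5B, fell, by 3.52- to 5.17-fold, and no membrane-bound member passed the test. MUC5AC was at 75.0, 63.4 and 52.0 CPM in the L, M and R pools of control OVCAR3 and at 14.7, 15.6 and 6.23 CPM in the HCQ-evolved pools. Every evolved pool was far below every control pool, a log2 fold change, written as evolved over control, of -2.37 with a standard error of 0.36 and an adjusted p of 0.0266 (edgeR's quasi-likelihood test, Benjamini-Hochberg adjustment over 12204 genes). MUC2 was at 9.51, 11.2 and 5.62 CPM in control pools and at 2.46, 1.70 and 1.57 CPM in evolved pools. The groups did not meet here either (log2 fold change -2.18, standard error 0.33, adjusted p = 0.0275, edgeR). MUC5B was at 20.3, 22 and 17.3 CPM in control pools and at 6.10, 6.48 and 4.22 CPM in evolved pools. It was the tightest of the 3, with pools well apart (log2 fold change -1.82, standard error 0.23, adjusted p = 0.0162, edgeR). In bulk RNA, fewer cells that make a mucin and less mucin RNA in each cell cannot be told apart.

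Of the 7 members tested in OVCAR3, 0 were called higher (also 0 at an unadjusted p under 0.05, with DESeq2 and with limma voom) and 3 lower, where 0.647% of all genes tested were called higher and 1.21% lower. MUC3A joined these 3 in having all evolved pools below all control pools, so 4 of 7 lay apart and lower against 12.7% of all genes, and 0 of 7 lay apart and higher against 13%. The median log2 fold change of the 7 was -1.68, and that of all genes 0.016. MUC4, MUC12 and MUC17 did not reach 1 CPM in 3 pools and were not tested. Leaving out any pool other than the HCQ-evolved R pool left 0 members called, with folds of the same direction and close to those above. Over all genes those fits called 3 to 49, against 227 with all pools. Without that R pool 4 members were called, MUC3A being the fourth, and 557 of all genes.

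In CCL218, the secreted mucins did not move together. MUC5AC fell as in OVCAR3, from 86.3, 51.7 and 30.3 CPM in the L, M and R control pools to 11.1, 13.0 and 9.86 CPM in the evolved pools. The lowest control pool was still well above the highest evolved pool, although control pools spread widely (log2 fold change -2.31, standard error 0.37, adjusted p = 0.0163, edgeR over 12241 genes). MUC2 was at 78.8, 48.2 and 28.4 CPM in control pools and at 13.3, 20.5 and 19.1 CPM in evolved pools. These pools did not meet, yet the test was just missed (log2 fold change -1.56, standard error 0.37, adjusted p = 0.0531, edgeR). With plate position as a block it was passed (-1.45, adjusted p = 0.0185, edgeR). This pairing of CCL218 pools was inferred from the same values and is not given by the labels. MUC5B went the other way, at 6.02, 4.72 and 2.35 CPM in control pools and at 8.37, 10.4 and 7.04 CPM in evolved pools. All its evolved pools were above all its control pools (log2 fold change 0.98, standard error 0.34, adjusted p = 0.133, edgeR), and with the block the call was higher (1.05, adjusted p = 0.0191).

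**Figure D2:**
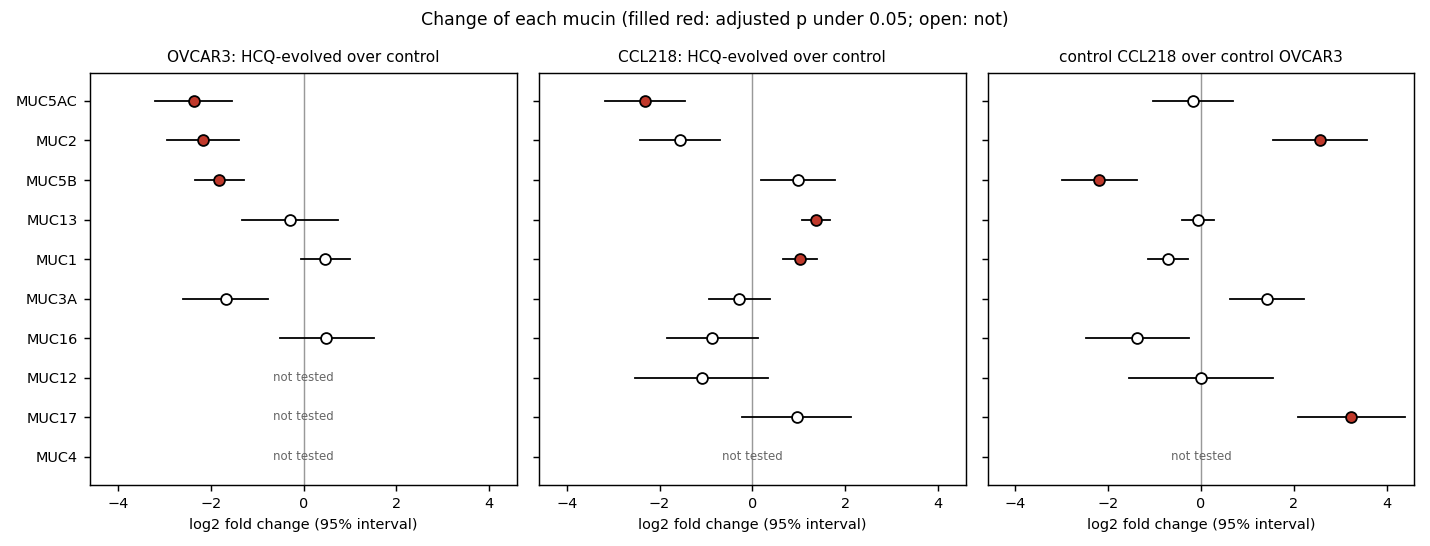
Change of each mucin. Points are log2 fold changes with 95% intervals (horizontal axis), for HCQ-evolved over control in OVCAR3 and in CCL218 and for control CCL218 over control OVCAR3, filled where the adjusted p was under 0.05. The 3 secreted mucins stand at -2.37 to -1.82 in OVCAR3, whereas in CCL218 MUC5B stands at 0.98 and MUC5AC at -2.31.

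The change of MUC5B differed between the lines. The difference of its log2 fold changes, CCL218 minus OVCAR3, was 2.81 (standard error 0.43, 95% interval 1.86 to 3.77, adjusted p = 0.0126, edgeR interaction over 12613 genes). MUC5B was the 1 member called of the 9 tested in this comparison, where 0.69% of all genes were called with a positive and 0.182% with a negative difference. Leaving out the HCQ-evolved CCL218 M pool brought this to an adjusted p of 0.0529 with a difference of 2.65. For MUC5AC the difference was 0.07, with a 95% interval of -1.12 to 1.27, and for MUC2 it was 0.64, with an interval of -0.5 to 1.78, intervals wide enough to hold a change more than 2-fold in either direction for MUC5AC. The MUC5B difference went with different starting levels, as control CCL218 held less MUC5B than control OVCAR3. The evolved pools of the lines lay closer to each other, at 4.22 to 6.48 CPM in OVCAR3 and 7.04 to 10.4 CPM in CCL218.

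The make-up of the gel-forming transcripts followed from these values. Per length, the 3 secreted mucins summed to 4.36 to 6.14 RPKM in control OVCAR3 and 0.708 to 1.38 RPKM in HCQ-evolved OVCAR3, and to 4.11 to 11.5 RPKM in control CCL218 and 2.14 to 2.92 RPKM in HCQ-evolved CCL218. In neither line did control and evolved pools meet. MUC5AC made up 63.7 to 70.0% of this sum in control OVCAR3 and 50.4 to 64.9% after evolution. In CCL218 its share was 42.2 to 43.0% in control pools and 23.1 to 29.7% after evolution, while that of MUC5B was 2.82 to 3.62% and 15.4 to 21.0%. The ratio of MUC5AC to MUC5B was accordingly 11.7 to 15.3 in control CCL218 and 1.33 to 1.49 in HCQ-evolved CCL218, and 3.07 to 3.93 and 1.57 to 2.56 in OVCAR3. The control CCL218 pools spread widely in their summed level but hardly in composition, with MUC2 at 54.2, 54.2 and 54.6% of the sum.

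**Figure D3:**
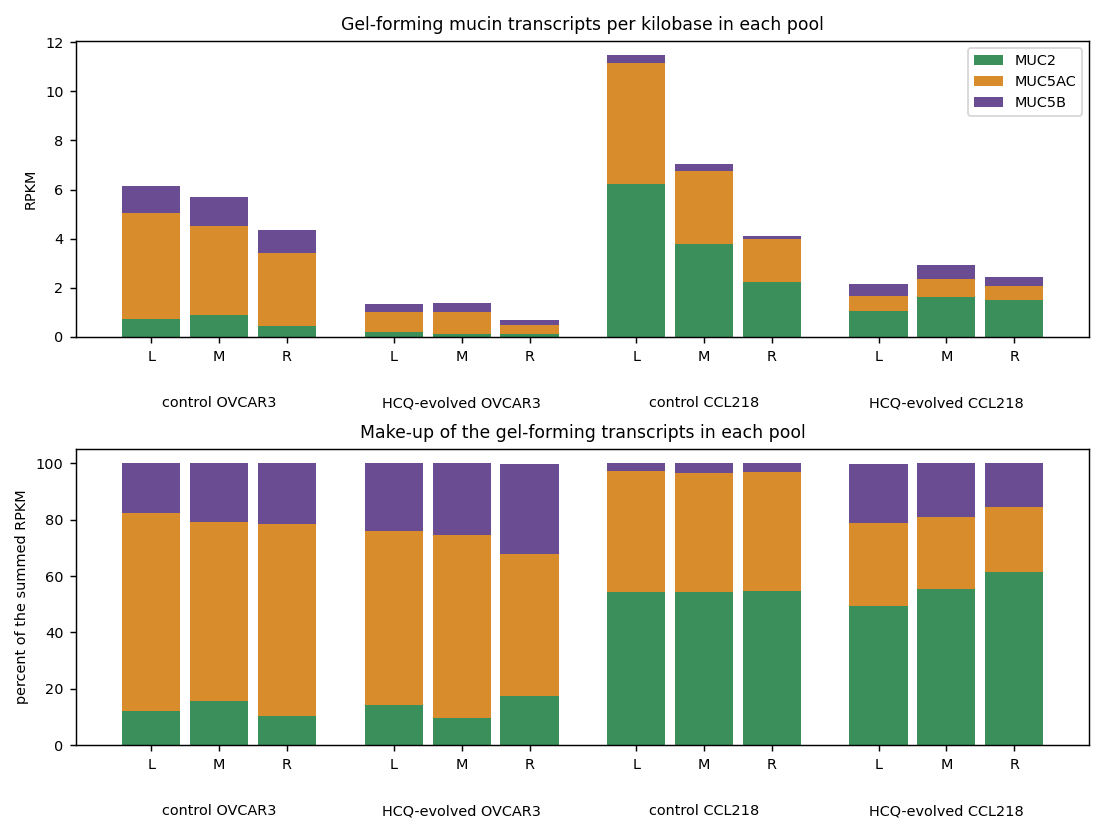
Gel-forming mucin transcripts in each pool, as stacked RPKM (upper panel) and as percent of their summed RPKM (lower panel), with the L, M and R pools of the 4 groups along the horizontal axis. The MUC5B share rises from 2.82 to 3.62% in control CCL218 pools to 15.4 to 21.0% in HCQ-evolved CCL218 pools, while the sum is lower after evolution in both lines.

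Of the membrane-bound mucins, MUC13 and MUC1 rose in CCL218. MUC13, a mucin of the intestinal surface with EGF-like domains, was at 68.1, 69.0 and 64.9 CPM in control CCL218 and at 151, 185 and 187 CPM after evolution. Every evolved pool was well above every control pool (log2 fold change 1.37, standard error 0.13, adjusted p = 0.00278, edgeR). In OVCAR3 it was at 72.7, 74.5 and 65.1 CPM in control pools and at 77.4, 74.1 and 20.6 CPM after evolution. The evolved L pool lay above the controls, the M pool among them and the R pool far below, which left a log2 fold change of -0.29 (95% interval -1.32 to 0.73, adjusted p = 0.792, edgeR) that became 0.10 without the R pool. The difference between the lines was 1.68 (adjusted p = 0.216, edgeR interaction), and 1.28 without that pool (adjusted p = 0.00702).

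MUC1, which carries a signalling cytoplasmic tail and is widely made by epithelial tumors, was at 12.9, 10.1 and 9.90 CPM in control CCL218 and at 24.7, 21.1 and 21.3 CPM after evolution. The groups were clearly apart (log2 fold change 1.03, standard error 0.16, adjusted p = 0.0132, edgeR). In OVCAR3 its control pools were at 20.0, 16.1 and 17.6 CPM and its evolved pools at 22.4, 19.8 and 30.6 CPM, and these ranges met (log2 fold change 0.46, 95% interval -0.06 to 0.99, adjusted p = 0.365, edgeR). The difference between the lines for MUC1 was 0.59 (95% interval 0.02 to 1.17, adjusted p = 0.527, edgeR interaction).

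Of the 9 members tested in CCL218, 2 were called higher and 1 lower, where 3.82% of all genes tested were called higher and 2.64% lower. Pools lay apart and higher for 3 members, MUC5B included, against 18.6% of all genes, and apart and lower for 2, against 17.3%. With the block for plate position 3 were called higher and 2 lower, MUC5B and MUC2 being those added. That block also raised the calls among all 12241 genes, to 957 higher and 787 lower from 468 and 323. The median log2 fold change of the 9 was -0.28, and that of all genes -0.017. Leaving out any single HCQ-evolved pool left only MUC13 called, leaving out the control L pool gave 5 calls, and without the control R pool MUC1 was not called (adjusted p = 0.0694). Over all genes, 791 were called with all pools and 102 to 147 without an evolved pool. Without the control L pool 3047 were called, and without the control R pool 145. In the fit of all 12 libraries MUC13 in turn was not called (1.37, adjusted p = 0.056), while MUC1, MUC5AC and MUC2 (adjusted p = 0.0331) were. Taken as a share of the library, the 10 mucins together held 176 to 311 CPM (here without TMM) in control CCL218 and 249 to 300.0 after evolution, and 170 to 228 and 119 to 143 in OVCAR3.

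The 7q22 mucins, which share EGF-like and SEA domains and belong to the brush border of the intestine, differed from each other. MUC3A was at 14.3, 10.7 and 8.45 CPM in control OVCAR3 and at 4.70, 3.94 and 1.66 CPM after evolution. Its pools did not meet, but the test was missed (log2 fold change -1.68, standard error 0.40, adjusted p = 0.0848, edgeR). In CCL218 the control pools were at 44.5, 23.9 and 21.3 CPM and the evolved pools at 25.6, 24.8 and 23.9 CPM. The evolved pools sat inside the control range (log2 fold change -0.28, 95% interval -0.93 to 0.38, adjusted p = 0.557, edgeR), and the fold became 0.12 without the control L pool. The difference of MUC3A between the lines was 1.43 (95% interval 0.28 to 2.57, adjusted p = 0.347, edgeR interaction).

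MUC17 was near the floor in OVCAR3, with 4 to 14 counts in control pools and 6 to 12 counts in evolved pools. In CCL218 it was at 2.41, 2.02 and 0.939 CPM in control pools and at 1.89, 2.68 and 5.82 CPM after evolution. The evolved R and M pools stood above all control pools and the L pool among them (log2 fold change 0.96, 95% interval -0.22 to 2.13, adjusted p = 0.28, edgeR). MUC12 was at 2.71, 0.659 and 1.66 CPM in control OVCAR3 and at 0.751, 0.617 and 0.218 CPM after evolution, and at 3.32, 0.805 and 0.960 CPM in control CCL218 and 0.842, 0.455 and 1.07 CPM after evolution. Control and evolved pools met in both lines (CCL218 log2 fold change -1.09, 95% interval -2.52 to 0.33, adjusted p = 0.304, edgeR). Its exons share 249 bases, 1.4% of the MUC12 exon bases, with those of MUC12-AS1 on the opposite strand. The counts of MUC12 were 0.911 to 2.06 times those of MUC12-AS1 in the 12 pools. As the strand setting of the counting is not stated, reads in the shared bases cannot be told apart. How many counts of either gene come from that stretch was not tested.

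MUC16, the mucin of the CA125 antigen, was at 30.5, 23.8 and 13.0 CPM in control OVCAR3 and at 21.4, 21.1 and 50.1 CPM after evolution. The evolved L and M pools lay within the control range and the R pool above it (log2 fold change 0.49, 95% interval -0.52 to 1.51, adjusted p = 0.632, edgeR), and the fold became -0.06 without the R pool. In CCL218 it was at 14.3, 7.22 and 4.48 CPM in control pools and at 3.65, 4.70 and 5.97 CPM after evolution. These ranges met (log2 fold change -0.86, 95% interval -1.84 to 0.12, adjusted p = 0.251, edgeR). MUC4, a membrane mucin that binds ERBB2, held 2 to 18 counts in every pool, too few to be tested. MUC20, the neighbour of MUC4 on chromosome 3, was at 64.6 ± 12 CPM in control OVCAR3 and 53.2 ± 14.7 CPM in control CCL218, so the low MUC4 was not shared by that gene.

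The HCQ-evolved OVCAR3 R pool stood apart from its sister pools for several members. Its MUC13 level was 0.271 times, and its MUC5AC level 0.412 times, the mean of the L and M pools, while its MUC16 level was 2.35 times that mean and its MUC1 level 1.45 times. The summed colorectal markers were at 703 and 645 CPM in the L and M pools and 245 CPM in the R pool. The summed ovarian markers were at 46.1, 45.7 and 46.1 CPM. LGALS4, the most abundant colorectal marker, ranged from 133 to 490 CPM over these pools. Not every marker followed its list. CEACAM5, a colorectal marker, was highest in the R pool (7.93 CPM, lowest pool 3.7). MSLN, an ovarian marker, was lowest there (2.21 CPM, highest pool 9.31). The part of these markers in the mucin values was not tested. CDX2, a transcription factor of intestinal identity that is among the colorectal markers, ranged from 0.803 to 9.72 CPM in the evolved OVCAR3 pools.

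Control CCL218 and control OVCAR3 differed in MUC2 and MUC5B of 9 tested members, and MUC17 was called as well. MUC2 was higher in control CCL218, with its lowest pool above the highest pool of control OVCAR3 (log2 fold change 2.56, standard error 0.43, adjusted p = 0.0314, edgeR over 12324 genes). MUC5B was lower, again without overlap (-2.19, standard error 0.34, adjusted p = 0.024), while MUC5AC, which lies between them in the genome, overlapped (-0.18, 95% interval -1.04 to 0.68, adjusted p = 0.824). MUC17 was higher (3.24, standard error 0.50, adjusted p = 0.0223), but it passed the filter on low counts through the CCL218 pools alone and thus had to differ.
Of all genes tested between the control lines, 0.941% were called higher and 1.08% lower in CCL218, and pools lay apart and higher for 8.63% and lower for 8.99%. Of the members, MUC2, MUC3A and MUC17 lay apart and higher, and MUC1 and MUC5B apart and lower. The tests above took no pairing of the pools. A block for plate position was also run, a pairing inferred from the same values and not given by the labels. With this block MUC3A was called higher as well (1.38, adjusted p = 7.85e-07, edgeR), and MUC1 (-0.71, adjusted p = 0.000508) and MUC16 (-1.44, adjusted p = 1.48e-06) lower, where without it their adjusted p-values were 0.104, 0.138 and 0.286. That block called 2163 of all 12324 genes higher and 2314 lower, against 116 and 133 without it, so such calls were common among all genes. MUC13 was alike in size in the control lines (-0.07, 95% interval -0.42 to 0.28, adjusted p = 0.824, edgeR), a direction that turned to 0.08 with library totals alone. For MUC12 the value was near 0 with an interval of -1.55 to 1.55.

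Plate position went with the level of some mucins in the control plates. MUC3A, MUC5AC and MUC16 were highest in the L pool, lower in M and lowest in R in both lines, 3 of 9 members, where 5.11% of all genes had that order in both control plates and 6.84% the opposite order. MUC5AC was thus at 75.0, 63.4 and 52.0 CPM across the control OVCAR3 plate and at 86.3, 51.7 and 30.3 CPM across the control CCL218 plate. In both evolved plates 1 of 9 members had the order from L down to R and 0 the opposite order, against 4.96% and 6% of all genes. The labels give no handling order of the pools, and what plate position stands for was not tested.

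Genes around mucin biology were read from 6 lists. Mucins are glycosylated in the Golgi by GalNAc transferases that start the chains and by enzymes that extend and cap them. Of 20 GalNAc transferases, 9 could be tested in OVCAR3 and 11 in CCL218, with 0 called in either line by edgeR. With no adjustment of p, 3 were higher in OVCAR3 at a threshold of 0.05, and 2 were higher and 1 lower in CCL218. DESeq2 called 1 and 3, limma voom 0 and 1, and the block for plate position made 2 of them higher in CCL218. Over all genes, 1983 of 12204 in OVCAR3 and 3084 of 12241 in CCL218 were under an unadjusted p of 0.05. DESeq2 called 1105 and 2172 of all genes, and limma voom 259 and 839. The block called 957 higher and 787 lower in CCL218. Such counts in the lists and loci below are to be read against these. Between control lines, GALNT5 was at 0.478 CPM in OVCAR3 and 3.74 CPM in CCL218 (2.96, adjusted p = 0.00451, edgeR) and GALNT8 at 0.198 and 1.18 CPM (2.57, adjusted p = 0.0154). Both passed the filter through the CCL218 pools alone and thus had to differ. Of 20 core and capping enzymes, ST6GALNAC1, which makes the sialyl-Tn antigen, was lower in the evolved pools of both lines. In OVCAR3 it passed the filter through the control pools alone and thus had to differ there. It was at 7.07 ± 1.31 CPM in control and 0.801 ± 0.266 CPM in evolved OVCAR3 (-3.13, standard error 0.34, adjusted p = 0.0104, edgeR). In CCL218 it was at 11.8 ± 0.802 and 3.58 ± 0.555 CPM (-1.72, standard error 0.17, adjusted p = 0.00294, edgeR). In OVCAR3 it was the 1 gene called of 14 tested, and in CCL218, where all its pools were above the filter, it was the 1 called lower of 15, while 2 rose, C1GALT1, the core 1 synthase (0.56), and FUT3, the Lewis fucosyltransferase (1.13). Over all genes, 1.21% were called lower in OVCAR3, and 3.82% higher and 2.64% lower in CCL218. CHST5, a sulfotransferase, was called in the interaction (3.76, adjusted p = 0.0129, edgeR), at 0.506 and 0.0847 CPM in control and evolved OVCAR3, where its counts were 18 to 24 and 2 to 6, and at 0.688 and 1.6 CPM in CCL218. It reached 1 CPM in the evolved CCL218 pools alone, through which it passed the filter on low counts, and was not tested within OVCAR3. Members of these lists other than the one of smallest p were named after their values were seen.

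Of the genes that goblet cells secrete or need for secretion, 1 was called in OVCAR3 and 4 in CCL218, of which 1, RETNLB, had to differ. Over all genes, 1.21% were called lower in OVCAR3 and 2.64% in CCL218. Of 13 tested in OVCAR3, FCGBP, a large mucus protein that is bound to MUC2 in the gut, fell from 53.1 ± 8.85 to 14.5 ± 4.09 CPM (-1.86, adjusted p = 0.0223, edgeR). Of 14 tested in CCL218, 4 fell and 0 rose, FCGBP (-1.09), SPINK4 (-2.25), RETNLB (-1.69) and FFAR4 (-0.81, adjusted p = 0.0248). RETNLB, at 1.85 ± 0.506 CPM in control and 0.574 ± 0.18 CPM in evolved pools, passed the filter through the control pools alone and had to differ. With the block for plate position 5 were called lower, TFF3 (-0.73, adjusted p = 0.0417) being added, and 1 higher, SYTL2 (0.63, adjusted p = 0.0463). The list median was -0.73 in OVCAR3 and -0.18 in CCL218, against 0.016 and -0.017 over all genes. The goblet markers CLCA1 and ZG16 were at or near 0 in control OVCAR3, with means of 0.0172 and 0 CPM, and the summed level of 8 goblet markers was 192 to 228 CPM in control and 107 to 129 CPM in evolved OVCAR3, and 211 to 328 and 131 to 181 CPM in CCL218.

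Of 22 transcription factors known to act on mucin genes or on goblet cells, 18 were tested in OVCAR3 and 2 fell. Over all genes 1.21% were called lower there. ATOH1, which sets the secretory fate of intestinal cells, went from 11 ± 1.78 to 2.06 ± 1.13 CPM (-2.41, adjusted p = 0.0479, edgeR), and HES1, a Notch target that represses ATOH1, from 907 ± 318 to 100 ± 37.0 CPM (-3.16, adjusted p = 0.0146). Of 19 tested in CCL218, 2 rose and 3 fell, against 3.82% of all genes called higher and 2.64% lower. CDX2 rose from 23.2 ± 2.85 to 67.8 ± 4.85 CPM (1.54, adjusted p = 0.00275, edgeR) and KLF4, a factor of goblet cell maturation, from 19.4 ± 1.48 to 52.4 ± 4.05 CPM (1.43, adjusted p = 0.00253). ATOH1 (-0.70), FOXA1 (-0.56) and GFI1 (-1.13) fell. Thus in CCL218 the MUC2 promoter printed above, with its match to the CDX core, belonged to a gene whose pools lay lower while CDX2 was higher, a pairing of values and no more. The changes of KLF4 (interaction 2.50, adjusted p = 0.00474, edgeR) and HES1 (3.54, adjusted p = 0.0258) differed between the lines. Between control lines, ATOH1 was higher in CCL218 (1.95, adjusted p = 0.00483), with 42.5 ± 2 CPM against 11 ± 1.78 CPM, GFI1 was higher as well (1.62) and HES1 lower (-2.53).

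Partners of membrane-bound mucins, which take in ERBB receptors, ezrin-type linkers, PDZ proteins, the brush border adhesion complex and sheddases, had 1 gene called of 22 tested in CCL218. It was called higher, as were 3.82% of all genes. Of the 22, 19 were at a positive log2 fold change against 48.3% of all genes, with a median of 0.32 against -0.017. MYO7B, the motor of that adhesion complex, was the gene called (1.47, standard error 0.17, adjusted p = 0.00574, edgeR), from 29.5 ± 5.54 to 81.6 ± 6.67 CPM. In OVCAR3, 8 of 22 were positive against 51.6% of all genes, the median was -0.09 and 0 were called by edgeR or limma voom, 1 by DESeq2, and 2 were lower at an unadjusted p under 0.05. With the block, 4 of the list were called higher in CCL218. MMP14, a membrane protease that can shed MUC1, changed differently in the lines (interaction 1.24, adjusted p = 0.0161). MSLN, mesothelin, the binding partner of MUC16, was at 14.3 ± 3.81 CPM in control OVCAR3 and 63.6 ± 27.1 CPM in control CCL218 (2.16, adjusted p = 0.0279, edgeR). The value of MUC16 between the control lines was negative, but it was not called and its pools overlapped (-1.38, adjusted p = 0.286, edgeR). Of 15 other mucins and mucin-like genes, 6 were tested. In CCL218, CD164, a sialomucin, rose (0.62, adjusted p = 0.0333) and MCAM, also known as MUC18, fell (-1.19, adjusted p = 0.0144), and in OVCAR3 0 were called by edgeR, with 2 lower at an unadjusted p under 0.05, 2 by DESeq2 and 1 by limma voom. MCAM was also lower in control CCL218 than in control OVCAR3 (-1.07, adjusted p = 0.0496, edgeR).

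In CCL218, 4 of 7 tested colorectal markers rose, as MUC13 and MUC1 did, where 3.82% of all genes were called higher. CDX2, CDH17 (3.77), GPA33 (2.86) and CEACAM5 (2.10) were called higher, the smallest adjusted p being that of GPA33 (0.000608, edgeR). VIL1 (-0.02), HNF4A (0.30) and LGALS4 (-0.42) were not called. LGALS4 was at 1046 ± 280 CPM in control and 785 ± 51.7 CPM in evolved pools, so the sum over the list, at 1231 to 1686 and 1302 to 1356 CPM, showed no such rise. In OVCAR3, 0 of 7 were called by edgeR and by limma voom, 1 was lower by DESeq2 and 2 at an unadjusted p under 0.05. The part of these genes in the mucin values was not tested.

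**Figure D4:**
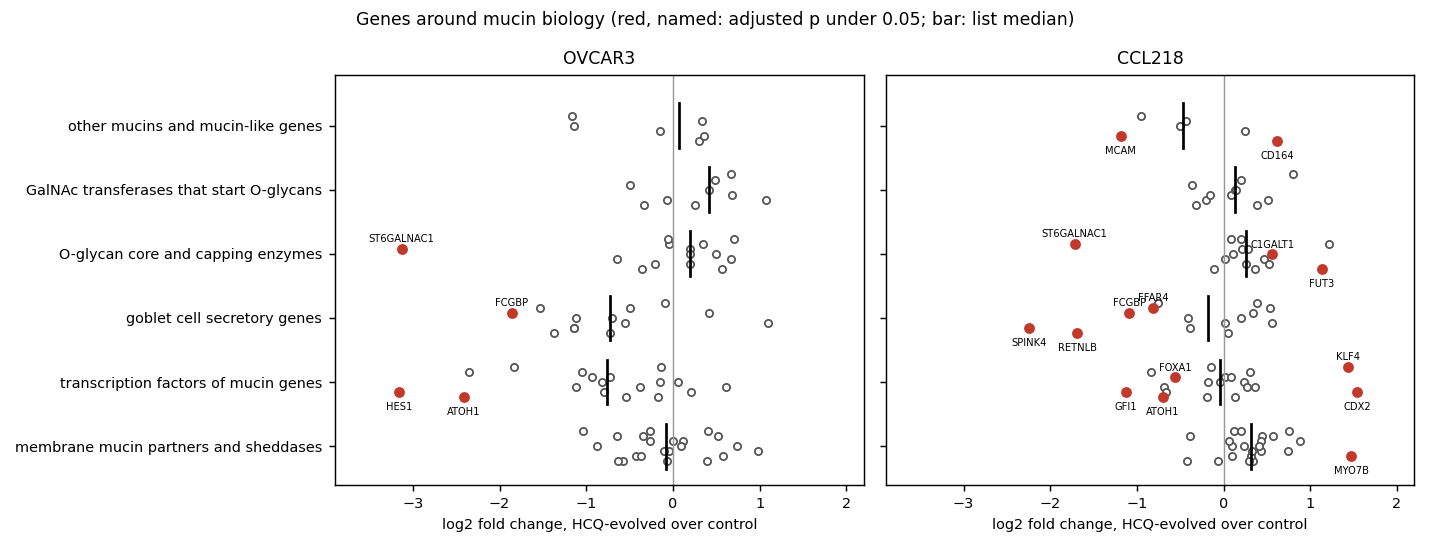
Log2 fold changes, HCQ-evolved over control (horizontal axis), of the tested genes of 6 lists around mucin biology (rows), in OVCAR3 and CCL218. Points are genes, filled and named where the adjusted p was under 0.05, and bars are list medians. ST6GALNAC1, FCGBP and ATOH1 are named on the left side of both panels, and the median of the transcription factors is -0.76 in OVCAR3 and -0.04 in CCL218. ST6GALNAC1 in OVCAR3 and RETNLB in CCL218 passed the filter through the control pools alone and thus had to differ.

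At 11p15 in OVCAR3 the mucins lay outside the range of their neighbours, which did not hold for all mucins of either cluster in CCL218. Within 500 kb of the 11p15 mucins, 24 other genes were tested in OVCAR3. Their log2 fold changes ran from -1.3 to 0.67 around a median of -0.19, and 1 was called, BRSK2 (-1.3, adjusted p = 0.0479, edgeR). The 3 mucins there lay below that range. In CCL218 the 24 neighbours had a median of -0.52, only 2 were above 0, and 3 were called lower, GATD1 (-0.74, adjusted p = 0.0134), SLC25A22 (-0.90) and DEAF1 (-0.50), the last 2 named after their values were seen. With the block for plate position, which called 787 of all 12241 genes lower and 957 higher, 10 were called lower and 1 higher. MUC5AC lay below their range of -1.64 (BRSK2, not called) to 0.88, MUC2 within it and MUC5B above it. Around the 7q22 mucins, 26 neighbours had a median of -0.06 in OVCAR3 with 0 called by edgeR and limma voom, 1 by DESeq2 and 2 at p under 0.05 with no adjustment. In CCL218, 24 had a median of -0.42 with 3 called lower, TRIP6 (-1.25, adjusted p = 0.00921, edgeR), SLC12A9 and IFT22, and 6 with the block. Their range, -1.25 to 0.54, held MUC12 and MUC3A, and MUC17 lay above it. Between control lines, 0 of 24 neighbours at 11p15 were above 0 (median -0.44) and 0 were called by edgeR, 9 being lower at an unadjusted p under 0.05, 4 by DESeq2 and 16 with the block. The block called 2314 of all 12324 genes lower in this comparison, DESeq2 called 421 lower, and 1528 were under an unadjusted p of 0.05. At 7q22 TRIP6 was called lower (-1.09, adjusted p = 0.0215).

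**Figure D5:**
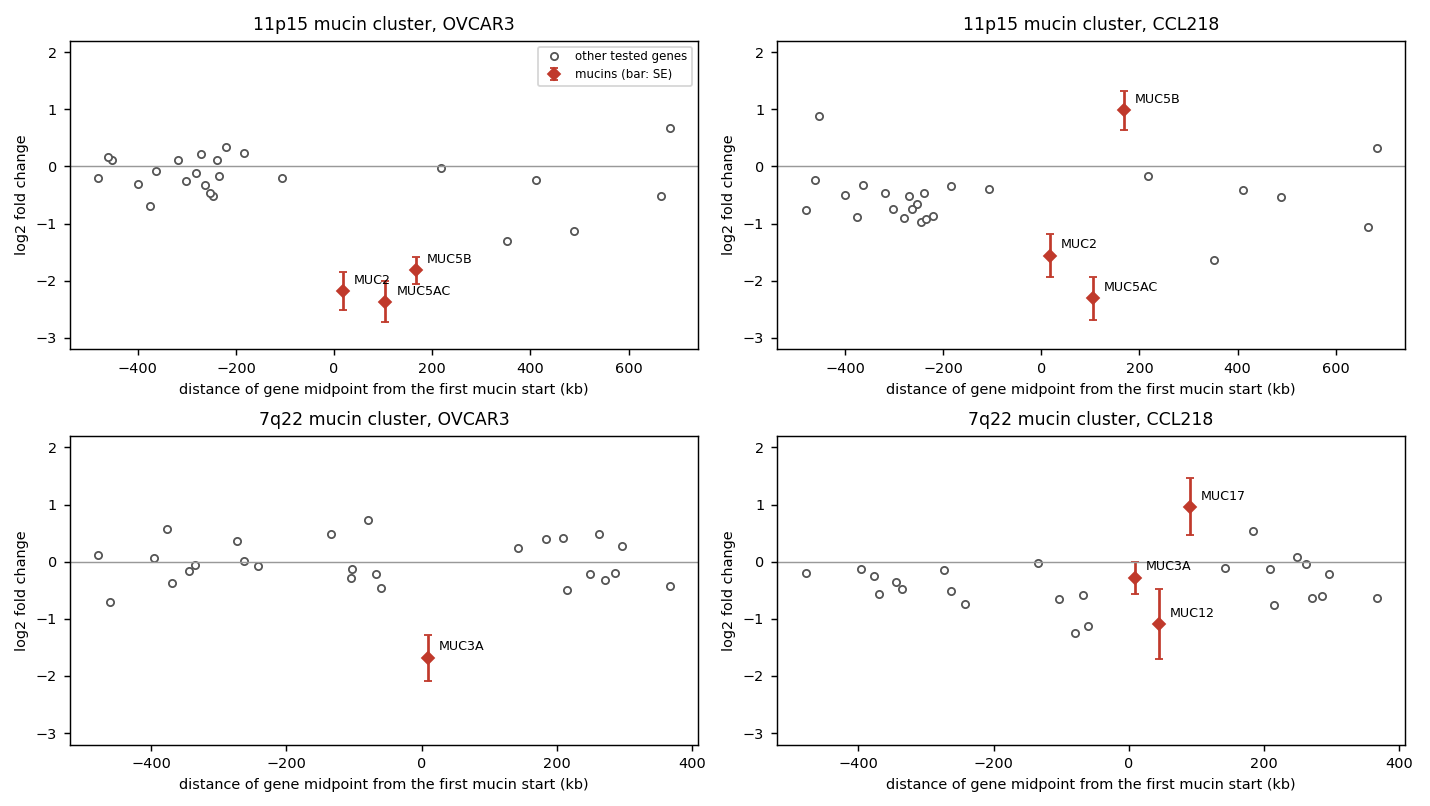
Log2 fold change (vertical axis) against the distance of each gene's midpoint from the start of the first mucin of the cluster in kb (horizontal axis), for the 11p15 and 7q22 clusters in OVCAR3 and CCL218. Diamonds are mucins with their standard error and open circles the other tested genes. At 11p15 in OVCAR3 the mucins stand at -2.37 to -1.82 and their neighbours at -1.3 to 0.67.

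The patterns most like those of a secreted and a membrane-bound mucin were sought by Pearson's r of log2 CPM over the 12 libraries and 12612 other genes, given as a description. For MUC5AC, chosen among the secreted mucins by its mean CPM over the 12 libraries, these were TMEM86A (r = 0.97), KLF15 (0.969) and FAM174B (0.964). KLF15, a zinc finger transcription factor, was at 27.6 and 4.80 CPM in control and evolved OVCAR3 and at 19.8 and 4.70 CPM in control and evolved CCL218. For MUC13, chosen in the same way among the membrane-bound mucins, they were MYO7B (0.984), ALDH18A1 (0.973) and GRAMD1B (0.969). ALDH18A1, an enzyme of proline synthesis, was at 243 and 227 CPM in OVCAR3 and at 254 and 362 CPM in CCL218. These points share libraries, depth and group differences, and r carries no test.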

How the data were processed

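The authors aligned paired-end polyA RNA reads to hg38 with STAR, removed duplicates with RmDup and counted reads per gene with featureCounts, and the deposited values are raw counts, taken as given (versions are not given in the sources used here). Of entries of 1 to 4 counts 78.9% were even, so that read mates appear to be counted singly and 3 counts, the floor, cover counting error only. All 12 columns were matched to samples by title and 0 were left over. Genes reaching 1 CPM in 3 or more of the fitted libraries were tested with edgeR 4.0.16 in R 4.3.3 (TMM scaling, robust quasi-likelihood F test, legacy mode, Benjamini-Hochberg adjustment over all genes tested, threshold 0.05), each line or the control pools alone and the interaction over 12 libraries. The fit was tested on simulated data. Gene levels shown as CPM used TMM factors of 0.868 to 1.09 over all libraries.

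The main tests held no block. Plate position was treated as a possible pairing where the same-position correlation of deviations from group means was above 0.1 in every pair, as in CCL218 (0.542, 0.27 and 0.227) and the control lines (0.865, 0.831 and 0.254), but not in OVCAR3 (0.422, -0.692 and -0.5). This rests on the values, since the labels do not say that a position was handled together. In CCL218 the control M pool correlated more with an evolved pool of another position (0.471) than with the evolved M pool (0.27). The block called 957 of 12241 genes higher and 787 lower in CCL218. Between control lines it called 2163 of 12324 higher and 2314 lower. Alternatives were other scalings, filters and tools (DESeq2 1.42.0, limma 3.58.1 voom), a spline trend with length and GC content (5 degrees of freedom) removed, a block for position, and each pool left out. GENCODE 44 matched 25763 of 28278 symbols (91.1%).

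Named genes were all members, the gene of smallest p in each list or locus where one passed, and the 3 genes of highest r, and others are marked where named. The members, lists and comparisons were chosen with earlier results of these data known.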

Additional observations from a re-analysis of the deposited data

Results flagged for a closer look

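The change of MUC5B after HCQ evolution differed between the cell line labels, by 2.81 on the log2 scale (CCL218 minus OVCAR3, edgeR interaction, adjusted p = 0.0126). All 3 evolved OVCAR3 pools were below their controls and all 3 evolved CCL218 pools above theirs. The difference was 2.51 to 3.12 with each pool left out in turn and 2.80 to 2.92 under the other settings run.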

How the results depend on the processing

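Depth limits MUC4 in all pools and MUC17 in OVCAR3, which lay near the floor, and 3 pools of 1 plate per group limit every test. Over 34 values of members and 583 comparisons with an alternative, 504 kept direction and side of the threshold, 35 lost the call, 26 gained it and 18 turned. In OVCAR3 3 to 4 members were called under other settings and 0 to 4 with a pool left out. In CCL218 5 were called with DESeq2, with the block for plate position (the inferred pairing) and with the length and GC trend removed, and 1 to 5 with a pool left out. The interaction gave 2 with DESeq2 (MUC13 added, adjusted p = 0.0403) and 0 to 2 with a pool left out. The control lines gave 5 with DESeq2, 6 with the block, and 0 to 3 with a pool left out. Single values that turned were not called in the main test. Leaving out pools, MUC13 in OVCAR3 ranged from -0.57 to 0.10, MUC16 in OVCAR3 from -0.064 to 0.75, MUC3A in CCL218 from -0.47 to 0.12, MUC5AC from -0.24 to 0.53 in the interaction and from -0.63 to 0.13 between control lines, and MUC12 between control lines from -0.94 to 0.50. MUC5AC in the interaction was -0.003 with the trend removed. Between control lines MUC12 was 0.15 and MUC13 0.079 with library totals alone, and MUC12 was 0.014 with no filter, 0.008 with filterByExpr and with DESeq2, and 0.000 in the fit of 12 libraries. The block changed no other call of a member than those given in the report. Over all genes the calls, 227 in OVCAR3, 791 in CCL218, 110 in the interaction and 249 between control lines, ranged over other settings from 81 to 1165, 654 to 2172, 35 to 463 and 249 to 4477. With a pool left out they ranged from 3 to 557, 102 to 3047, 38 to 212 and 25 to 471. The cause of these shifts was not tested.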
